A study of Mus musculus with 8 samples.

Results

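The genes described here are 10 genes of the extracellular matrix, grouped under a name, matricellular genes of late fibrosis, that is not a result here. They are Postn, Cilp, Thbs1, Thbs4, Tnc, Comp, Ltbp2, Mfap4, Adamtsl2 and Col8a1. They were taken by symbol from the 32285 features that every file lists, and all 10 were found. They had been chosen with their levels in these sections and libraries known, so what follows is a description of them and not a test. The study followed male C57BL/6J wild-type mice, 8 weeks old at the start, after transverse aortic constriction (TAC), in which a ligature narrows the aortic arch so that the left ventricle pumps against a raised pressure, or after a sham operation. Hearts were taken 2, 4 and 6 weeks after TAC (here TAC-2w, TAC-4w, TAC-6w). The labels give no week for sham. For each of these 4 conditions there was 1 Visium section, in which the RNA of small tissue spots is counted in place, and 1 droplet library of dissociated heart cells. With 1 sample per condition no test between conditions was possible, and every interval given is a 95% interval that covers counting error only.

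Matricellular proteins are secreted into the matrix without being its main scaffold, and they tune how cells grip and how growth factors are held there. Periostin (Postn), tenascin C (Tnc) and the thrombospondins (Thbs1, Thbs4 and Comp) are low in the resting adult heart. They are known to be made in wounds and under strain, by activated fibroblasts among other cells. Latent transforming growth factor beta (TGF-beta) is stored on fibrillin microfibrils, to which Ltbp2, Mfap4 and Adamtsl2 belong or bind.

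The upstream sequences of these genes are shown because the genes were high together at TAC-6w in the tissue. RefSeq start sites of build GRCm38.p6 were at hand for 7 of the 10 genes, with 9 windows in all, since Postn and Tnc each have a pair of annotated starts. The 250 bases before each start were searched on both strands for 5 short motifs. These were the AP-1 site TGANTCA, the TEAD site GGAATG, the SMAD site GTCTAGAC, its shorter core CAGACA and the TATA box TATAAA. The letters TATAAA were found upstream of Postn, Tnc and Adamtsl2, and in 4 of the 9 windows, against 12.4% of all 32851 windows. Both Tnc windows overlap and hold the same match, 126 and 205 bases before their starts. The SMAD core was found for Thbs4, Tnc and Col8a1, in 3 of the 9 windows, against 17.1% of all windows. The TEAD site stood upstream of Thbs4 alone among them, as 2 matches that share a base, against 12.6% of all windows. Neither TGANTCA, which 6.75% of all windows hold, nor GTCTAGAC, which 0.167% hold, matched a window of these genes. The windows of 4 genes follow, 5′ to 3′ on the strand of the gene (plus for Postn and Cilp, minus for Thbs4 and Col8a1), with the motif matches in capitals. The Postn window belongs to the downstream of its annotated starts.
Postn, chr3:54360857-54361106: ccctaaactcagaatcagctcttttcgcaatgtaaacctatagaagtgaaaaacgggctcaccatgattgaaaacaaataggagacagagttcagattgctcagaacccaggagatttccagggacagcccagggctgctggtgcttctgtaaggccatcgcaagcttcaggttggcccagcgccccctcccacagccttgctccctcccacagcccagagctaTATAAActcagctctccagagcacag
Cilp, chr9:65264930-65265179: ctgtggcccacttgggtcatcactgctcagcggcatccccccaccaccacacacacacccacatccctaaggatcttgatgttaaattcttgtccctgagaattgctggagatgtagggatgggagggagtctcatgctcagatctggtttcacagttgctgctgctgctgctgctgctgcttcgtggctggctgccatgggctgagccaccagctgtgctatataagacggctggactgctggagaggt
Thbs4, chr13:92794819-92795068: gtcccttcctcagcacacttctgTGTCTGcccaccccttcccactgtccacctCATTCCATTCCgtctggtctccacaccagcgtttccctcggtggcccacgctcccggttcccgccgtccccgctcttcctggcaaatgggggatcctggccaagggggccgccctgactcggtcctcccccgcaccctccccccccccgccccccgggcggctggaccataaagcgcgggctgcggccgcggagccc
Col8a1, chr16:57754738-57754987: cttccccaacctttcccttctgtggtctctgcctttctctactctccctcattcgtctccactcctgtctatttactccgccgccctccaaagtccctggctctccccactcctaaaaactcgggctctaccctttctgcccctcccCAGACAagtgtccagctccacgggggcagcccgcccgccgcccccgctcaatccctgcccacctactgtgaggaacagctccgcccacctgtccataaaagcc
In these letters, the capitals of the Postn window are its TATA box, 26 bases before the start. Those of the Thbs4 window are a SMAD core at 227 and TEAD sites at 197 and 192 bases before the start, all read on the other strand, and the capitals of the Col8a1 window are a SMAD core at 103 bases. The Cilp window is shown as one in which none of the motifs matched letter for letter. It does hold tataag near its end, which differs from TATAAA in the last letter. The search took exact letters only, so a window without a match may still hold a TATA box of another spelling. A match is a string of letters and was not tied here to any factor.

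The sections held between 1228 and 2193 spots and between 25996378 and 48754396 unique molecular identifiers (UMIs), each UMI standing for 1 captured RNA molecule. Of these UMIs 51.5% were mitochondrial in sham and between 42.2% and 44.2% in the TAC sections. The libraries kept between 5399 and 7965 cells. By the labels the sham and TAC-2w sections share a batch, while the TAC-4w and TAC-6w sections have a batch each, so condition and batch cannot be told apart for them. Among the libraries, sham and TAC-6w share a batch. The TAC-4w library stood apart, with 185 fibroblast-like cells against between 2798 and 4231 in the others and with 2427 B cell-like and 1254 neutrophil-like cells. Pairs of libraries shared between 8 and 19 barcodes of kept cells.

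In the sections, all 10 genes were higher at TAC-6w than in sham, and 8 of the 10 were at least 2-fold higher. All 10 ratios had an interval above 1, but so did 7178 of the 11952 genes compared. Among all 11952 genes with at least 50 UMIs in either section, 4.66% were at least 2-fold higher at TAC-6w, but because the genes were chosen from this pattern the count is only a description. Their median ratio to sham was 4.13 at TAC-6w, where the median of all genes was 1.24. At TAC-4w the median was 2.05, against 1.16 for all genes, and 5 of the 9 genes with enough counts were at least 2-fold higher (5.28% of all genes). At TAC-2w, in the batch of sham, it was 0.668 against 1.03. None of the 8 genes with enough counts was then 2-fold higher (0.657% of all genes) and 2 of them, Thbs1 and Ltbp2, were at least 2-fold lower (0.587% of all genes). With spots thinned to 5000 UMIs Thbs1 was at 0.610 times sham, so that only Ltbp2 was then 2-fold lower. In 6 of the 10 genes the interval of the ratio lay below 1 at one time and above 1 at another (14.8% of all 11510 genes with enough counts at more than 1 time). Levels are UMI counts per 1000000 UMIs of the section (CPM), and where 4 values are listed they run from sham over the TAC sections or libraries by week. In a section, more cells of a type and more RNA per cell cannot be told apart.

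**Figure D1:**
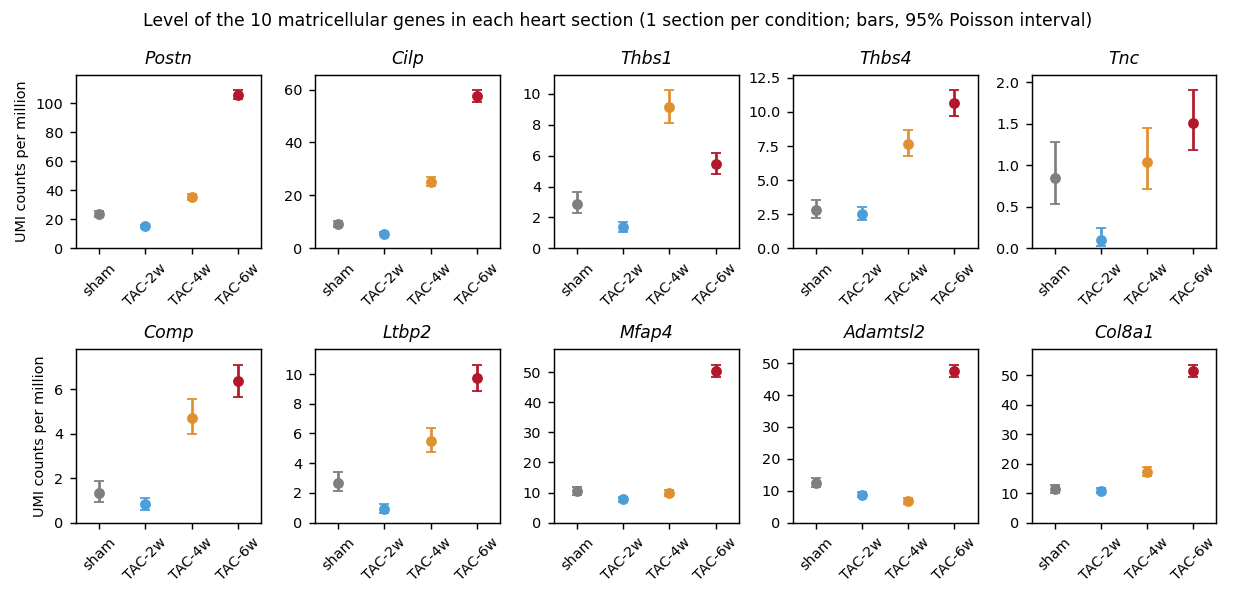
Level of each gene in CPM (vertical axis, from 0, 1 scale per gene) in the 4 sections (horizontal axis, left to right by time); points are single sections and bars 95% Poisson intervals. The TAC-6w point is the highest for 9 genes, while Thbs1 is highest at TAC-4w.

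Postn, which encodes periostin, a protein that binds integrins and collagen, stood at 23.8 CPM in sham and at 15.1, 35.2 and 106 CPM in the TAC sections by week. Its lowest section was thus TAC-2w and its highest TAC-6w, and the 4 intervals did not overlap. The ratio to sham was 0.635 (0.570 to 0.708) at TAC-2w, and it was 1.48 (1.34 to 1.64) and 4.46 (4.10 to 4.86) in the later sections. The share of spots with a Postn UMI went from 21.9% in sham to 24.5%, 33.3% and 64.5%. Tnc, whose product loosens the grip of cells on fibronectin, was sparse. It had 22, 5, 33 and 73 UMIs in the 4 sections in the same order, or 0.846, 0.103, 1.03 and 1.51 CPM. Its TAC-6w level was 1.79 times (1.096 to 3.02) that of sham, and the intervals of the levels in those 2 sections overlapped.

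Among the thrombospondins, Thbs1, a large secreted protein that can activate latent TGF-beta, stood at 2.89, 1.35, 9.11 and 5.47 CPM. It was the gene of the group that was highest at TAC-4w, with 3.16 times (2.44 to 4.13) the sham level, and at TAC-6w it was at 0.600 times (0.506 to 0.711) its TAC-4w level. The summed markers of neutrophils were at 30.7, 6.48, 89.2 and 16.7 CPM in the same order, and over the TAC-4w spots they had a correlation of 0.003 with Thbs1. Their part in the Thbs1 levels was not tested. Thbs4, a thrombospondin of muscle and tendon, stood at 2.85, 2.52, 7.67 and 10.6 CPM. It was close to sham at TAC-2w, where the ratio was 0.886 (0.659 to 1.199), and 3.73 times (2.92 to 4.83) higher at TAC-6w. Comp, the thrombospondin best known from cartilage and tendon, stood at 1.35, 0.820, 4.73 and 6.36 CPM. Its ratio to sham was 3.51 (2.42 to 5.23) at TAC-4w and 4.72 (3.32 to 6.91) at TAC-6w. With spots thinned to 5000 UMIs the TAC-4w ratio was 1.77. Of 5 cartilage markers, between 2 and 4 were at 0 in each section, and their sum was between 1.54 and 4.06 CPM.

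Cilp, a matrix protein of cartilage and of the scarred heart, had the largest ratio of the group at TAC-6w when UMIs were summed over the section. Its levels were 9.27, 5.52, 25.1 and 57.5 CPM, so that TAC-2w was below sham by a ratio of 0.595 (0.498 to 0.711) and TAC-6w above it by 6.20 (5.44 to 7.11). The share of spots with a UMI was 6.44% in sham and 44.96% at TAC-6w. In sham the 1% of spots with the highest counts held 53.9% of all Cilp UMIs, and at TAC-6w 17.3%. For Comp this share went from 68.6% of 35 UMIs to 27.7% of 307 UMIs. The Comp UMIs of sham lay in 28 spots, and 17 spots make up the 1%, so that share is high however they are spread. The ratios of several genes depended on how spots were pooled. With the CPM of each spot averaged, the TAC-6w ratio of Comp was 13.1 and that of Cilp 7.17, so that Comp was then the highest. In that average a spot with few UMIs counts as much as a deep one. Without the 1% of spots with the highest count of each gene, Cilp was at 11.2, Comp at 10.9, Tnc at 8.44 and Ltbp2 at 8.22 times sham at TAC-6w, and Cilp at 4.28 and Ltbp2 at 3.51 times at TAC-4w. Few sham UMIs of Tnc, Comp and Ltbp2 were then left. The 17 spots left out in sham held 86.4% of its 22 Tnc UMIs, 68.6% of 35 for Comp and 64.3% of 70 for Ltbp2. For these 3 genes the ratios therefore do not show a larger difference than the main ones. For Cilp the spots left out held 53.9% of 241 UMIs in sham and 17.3% of 2777 at TAC-6w. Its larger ratio follows from these unequal shares and is a description.

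Of the genes tied to microfibrils, Mfap4 and Adamtsl2 followed a different order in time from Ltbp2. Ltbp2, a fibrillin-binding relative of the latent TGF-beta binding proteins, stood at 2.69, 0.923, 5.51 and 9.71 CPM, with TAC-2w the lowest section at 0.343 times sham (0.230 to 0.506). Mfap4, which helps to assemble elastic fibres, stood at 10.5, 7.69, 9.77 and 50.4 CPM. Adamtsl2, a secreted protein of the ADAMTS-like family that binds fibrillin and Ltbp proteins, stood at 12.5, 8.76, 6.67 and 47.6 CPM. Mfap4 and Adamtsl2 were therefore not higher than sham at TAC-4w, with ratios of 0.927 (0.785 to 1.09) and 0.533 (0.447 to 0.636), while Ltbp2 was at 2.05 (1.54 to 2.74). From TAC-4w to TAC-6w Mfap4 differed 5.16-fold (4.59 to 5.83) and Adamtsl2 7.13-fold (6.20 to 8.25). Comp differed 1.34-fold (1.103 to 1.65) and Thbs4 1.39-fold (1.19 to 1.62) over the same step. Col8a1, a short-chain collagen that forms sheets under endothelium, stood at 11.3, 10.9, 17.2 and 51.5 CPM, close to sham at TAC-2w (0.961, 0.832 to 1.11) and 4.55 times (4.03 to 5.15) higher at TAC-6w.

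Genes of related roles were compared as lists, with their genes also chosen in knowledge of earlier results. Of 12 family relatives with enough counts, 1 was at least 2-fold higher at TAC-6w and the median ratio was 1.36. Mfap5, a microfibril protein, was at 2.56 times sham and Ltbp4, which stores latent TGF-beta, at 1.78 times, while Thbs2 was the lowest at 0.616 (0.541 to 0.703). Of 9 other matricellular genes 3 were at least 2-fold higher, with Ccn5 at 3.45 and Sparc, a collagen chaperone, at 2.38, and with Ccn3 the lowest at 0.901. Of 10 elastic fibre genes 4 were at least 2-fold higher, led by Fbn1 (2.50), which encodes fibrillin, and Eln (2.44), which encodes elastin, and 1 was 2-fold lower, Efemp1 at 0.450 (0.374 to 0.540). Of 14 ligands, receptors and a protease that act with these proteins 2 were at least 2-fold higher, the integrin chain gene Itga9 (2.47) and the ligand gene Tgfb2 (2.28), and the lowest was the receptor gene Cd36 at 1.04.

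The fibrillar collagens, the main scaffold of a scar, were below sham at TAC-4w. Of their 6 genes with enough counts all had an interval of the ratio to sham below 1 at that time (8.81% of all genes), with a median of 0.705. The median of the matricellular genes was then 2.05, with Adamtsl2 the gene among them whose interval lay below 1. At TAC-6w their median was 2.48, with Col3a1 at 3.05, Col1a1 at 2.72 and Col5a3 the lowest at 1.79. The summed markers of fibroblasts were at 1678, 1521, 2141 and 1995 CPM in the 4 sections. Those of endothelial cells were at 1222 and 2126 CPM in sham and TAC-6w, those of dividing cells at 8.81 and 29.8 CPM and those of valve and tendon-like cells, with Tnmd at 0 in both, at 4.42 and 11.3 CPM. The part of these cells in the section levels was not tested.

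Across the TAC-6w spots the genes varied together only loosely. Over the 45 pairs of genes the median Pearson correlation of log-normalized counts in 2193 spots was 0.0943, with a range from -0.0222 to 0.326. Pairs of all genes found in at least 10% of these spots had a median of 0.0148, and 95% of such pairs were below 0.0622. Of the 10 genes, 8 were found in that many spots, while the 45 pairs include all 10. The closest pairs were Postn with Cilp (0.326), Cilp with Col8a1 (0.303) and Cilp with Mfap4 (0.298). In the TAC-4w section, whose spots had more UMIs, the median was 0.190 and the closest pair was Postn with Ltbp2 at 0.504. In sham it was 0.141, with Cilp and Ltbp2 at 0.412, and at TAC-2w 0.0411. Spots of a section share their library and their depth range. With spots thinned to 5000 UMIs the median at TAC-6w was 0.0463, above the 0.0365 of sham, so the order of this pair turned. The TAC-4w section was still the highest, with 0.0788, and the TAC-2w section the lowest, with -0.0024. The part of depth in the order of the sections was not tested. For thinned spots no value of all genes was computed, so the thinned medians have no background beside them.

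**Figure D2:**
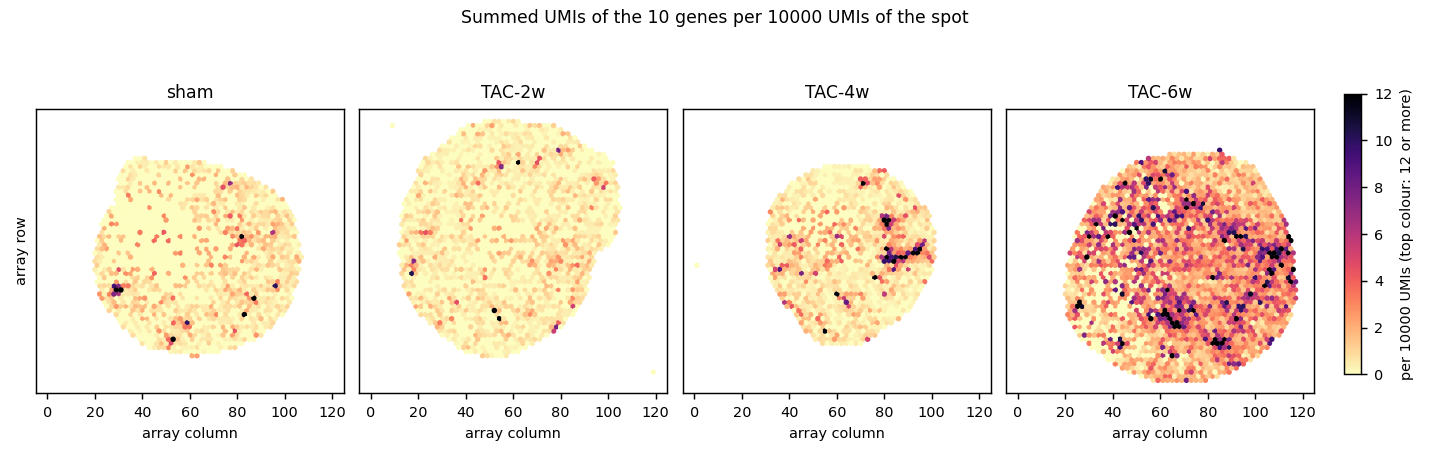
Spots of each section at their array positions (array column and row), coloured by the summed UMIs of the 10 genes per 10000 UMIs of the spot; the darkest colour stands for 12 or more. Few spots of sham and TAC-2w are dark, those of TAC-4w lie in a band at one side, and at TAC-6w dark patches are spread over a section that is darker throughout.

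For 8 of the 10 genes neighbouring spots resembled each other most at TAC-4w. Moran's I, which is 0 for values without spatial order and larger where neighbours are alike, was 0.351 for Postn, 0.348 for Ltbp2, 0.346 for Cilp and 0.337 for Comp in that section. At TAC-6w it was 0.254 for Postn, 0.226 for Cilp and 0.209 for Comp, and 0.053 for Ltbp2. Adamtsl2 was instead highest at TAC-6w, with 0.120 against 0.0850 at TAC-4w, as was Tnc, with 0.0258 against -0.000133. The median of all genes found in at least 10% of the spots was 0.0188, 0.00619, 0.0114 and 0.0149 in the 4 sections. How many of all genes were highest at TAC-4w was not counted. The TAC-4w spots also had the most UMIs, with a median of 27593, so the 8 of 10 is only a description. Spots at the tissue edge held less of several genes than spots inside at TAC-6w. Their ratio was 0.282 (0.127 to 0.542) for Comp, 0.498 (0.322 to 0.738) for Thbs4, 0.586 (0.493 to 0.693) for Col8a1 and 0.724 (0.649 to 0.805) for Postn. Adamtsl2 was higher at the edge, by 1.18 (1.04 to 1.35), and Mfap4 did not differ beyond its interval at 1.12 (0.980 to 1.27). In sham the edge ratio of Adamtsl2 was 0.305 (0.169 to 0.511). That of Postn was 0.691 in sham, 1.35 at TAC-2w and 0.268 at TAC-4w, so lower edge levels were not particular to TAC-6w. The TAC-6w edge spots had a median of 27653.5 UMIs, against 19709 inside. How many of all genes were lower at the edge was not counted.

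The genes most like the group over the TAC-6w spots, by mean correlation with the 10 among 8604 other genes, were Gsn (0.173), Mfap5 (0.167), Bgn (0.164), Fbln2 (0.162), Col3a1 (0.161), Igfbp7 (0.158), Ccn2 (0.150), Dcn (0.148), Col1a2 (0.147) and Fstl1 (0.142). Postn, Cilp and Adamtsl2 each had Fbln2, a fibulin of the matrix, as their closest gene, with correlations of 0.333, 0.285 and 0.249. Mfap4 and Thbs1 had Gsn (0.290 and 0.137), an actin-severing protein abundant in fibroblasts, and Col8a1 had Fstl1 (0.242), a secreted glycoprotein. Ltbp2 was closest to Bgn (0.178), a small proteoglycan, and Thbs4 to Nppa (0.178), the natriuretic peptide gene of strained heart muscle. Comp stood aside. Its closest genes were Gm42418 (0.257), which is a ribosomal-RNA-like feature, Lars2 (0.236) and Cst3 (0.209). Comp was also the gene of the group with the most negative correlation with the log UMIs of a spot (-0.226), where Adamtsl2 had 0.240. The part of spot depth in these values was not tested. Tnc, found in 3.15% of the spots, had its highest correlation, 0.134, with Gpd2. These correlations were low and are given as descriptions of 1 section.

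In the libraries, cells were clustered without the 10 genes and named by markers of other genes. Clusters 0 and 3, with 8580 and 1625 cells, were fibroblast-like. Cluster 6, with 816 cells and led by Wif1, Chad and Fmod, was valve and tendon-like and was kept apart from the fibroblast-like cells. The markers of fibroblasts summed to 37654 CPM in this class and 41678 CPM in the fibroblast-like cells, while those of valve and tendon-like cells summed to 1405 and 12.2 CPM. Taking the mean level over libraries, 3 of the 10 genes (Cilp, Adamtsl2 and Col8a1) were highest in fibroblast-like cells, 6 in the valve and tendon-like cells and Thbs1 in neutrophil-like cells. With both classes joined as fibroblast-like, 9 of the 10 genes were highest there. Without the TAC-4w library the fibroblast-like count stayed at 3, and Tnc was then highest in dividing cells. Its level in dividing cells was uneven, from 0 to 27.7 CPM over the 4 libraries, with a mean of 6.91 CPM. How many of all genes were highest in each class was not counted.

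**Figure D3:**
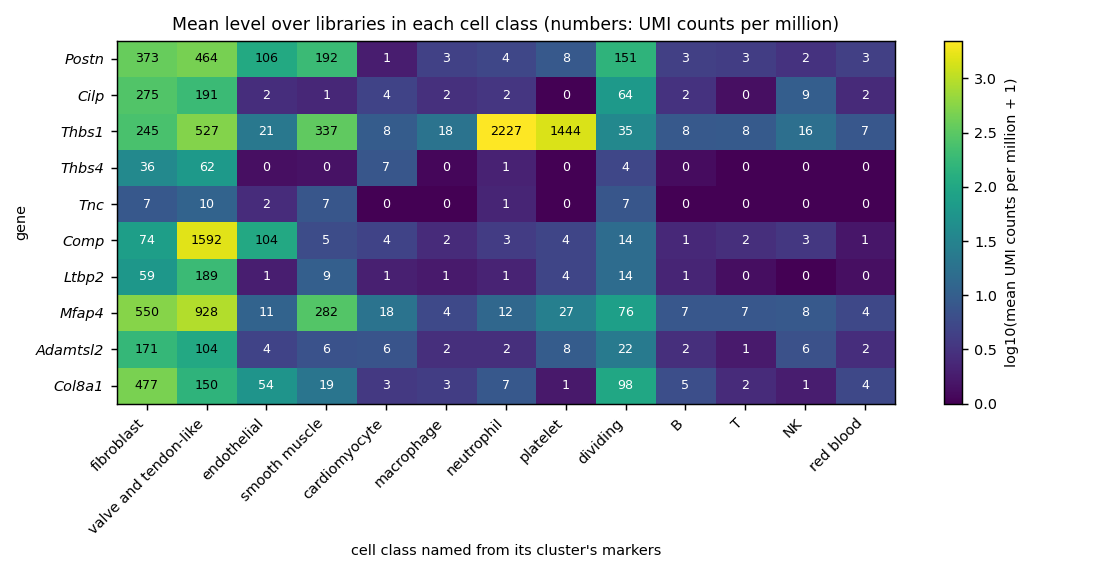
Mean level of each gene (rows) in each cell class (columns) over the libraries with at least 20 cells of the class, coloured by log10 of the mean CPM plus 1 and printed as CPM. Values gather in the fibroblast and valve and tendon-like columns, with Thbs1 at 2227 in neutrophil-like and 1444 in platelet cells.

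Comp had its highest level in the valve and tendon-like cells. There it stood at 1097, 1086, 2528 and 1656 CPM, against 47.2, 41.8, 42.8 and 164 CPM in fibroblast-like cells. The first class therefore held 53.5% of all Comp UMIs of the sham library although it had 256 cells, and the fibroblast-like cells 35.9%. At TAC-6w, with 78 valve and tendon-like cells, the shares were 25.0% and 73.1%. Thbs1 was spread more widely. Its level in neutrophil-like cells was 1966, 2997, 1896 and 2049.7 CPM, and in fibroblast-like cells 182, 186, 239.9 and 375 CPM. In the TAC-4w library neutrophil-like cells held 75.3% of the Thbs1 UMIs, and in the other libraries between 7.1% and 10.5%. In B cell-like cells, which should lack these genes, every one of the 10 had a UMI in at most 1.31% of the cells in every library, after each cell had been thinned to 1000 UMIs.

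Between sham and TAC-6w, which share a batch, 9 of the 10 genes had a higher level in fibroblast-like cells, with intervals above 1 (27.2% of all 12238 genes), and Mfap4 a level whose interval lay below 1 (36.9% of all genes). The median ratio of all genes was 0.951. Thbs4 differed most. Its levels were 7.11, 20.4, 25.2 and 93.1 CPM, so that each TAC library lay above sham, and TAC-6w by 13.1 times (11.6 to 14.8). Postn stood at 249.6, 306, 222 and 714 CPM and Cilp at 165, 227, 211 and 497 CPM, both with TAC-6w far above the other libraries, at 2.86 (2.79 to 2.93) and 3.01 (2.92 to 3.11) times sham. Tnc (4.22, 3.74, 4.80 and 16.5 CPM) and Ltbp2 (29.8, 41.98, 56.4 and 108 CPM) had ratios of 3.91 (3.26 to 4.71) and 3.62 (3.38 to 3.89). The ratio of Comp was 3.47 (3.29 to 3.67), that of Thbs1 2.06 (2.00 to 2.13). For Comp this value depended on the class boundary, since it was 1.93 (1.86 to 2.01) with each cell named by its own markers and 1.93 (1.85 to 2.01) with the valve and tendon-like cells joined. Adamtsl2 stood at 137, 177, 89.6 and 279.8 CPM, lowest at TAC-4w as in the sections, and Col8a1 at 334, 448, 343 and 785 CPM. In 4 of the 10 genes the interval lay below 1 in one TAC library and above 1 in another (25.4% of all 12221 genes).

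Mfap4 was the exception. Its fibroblast-like level was 569, 643, 433 and 553 CPM, and the ratio of TAC-6w to sham was 0.973 (0.951 to 0.996), whereas in the sections it was 4.79 (4.22 to 5.44). Thbs4 differed in the other direction, with 13.1 in the cells and 3.73 in the sections. The sham section and the sham library come from different batches, and the section and library values were not tested against each other. Beside these levels, the summed fibroblast markers in the fibroblast-like cells were at 42351 CPM in sham and 31325 at TAC-6w, those of neutrophils at 6.5 and 71.9 CPM, and those of valve and tendon-like cells at 5.8 and 39.1 CPM. The part of these differences in the levels was not tested.

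**Figure D4:**
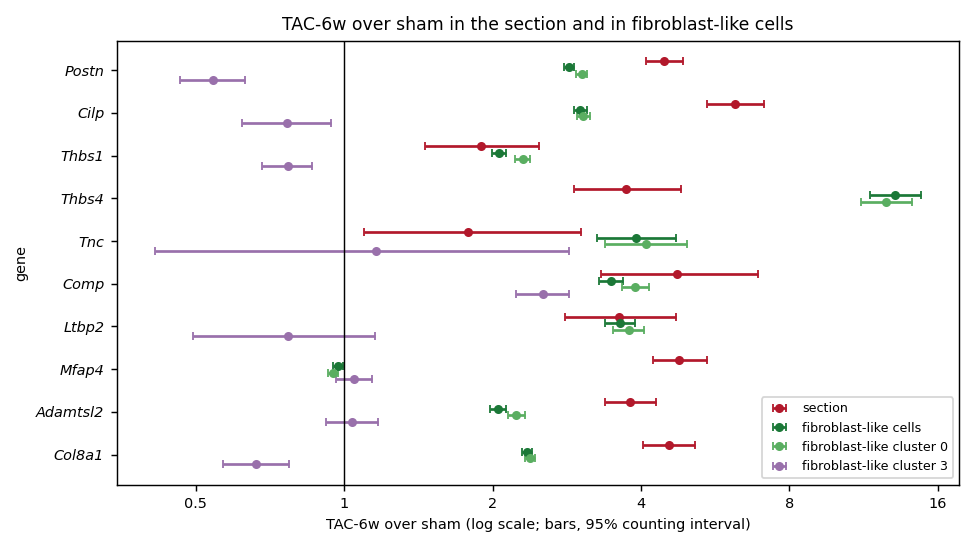
Ratio of TAC-6w to sham for each gene (log scale, bars are 95% counting intervals) in the section, in all fibroblast-like cells and in the fibroblast-like clusters 0 and 3; the vertical line marks no difference, and Thbs4 in cluster 3 is not drawn. Cluster 0 lies close to all fibroblast-like cells, while cluster 3 lies below 1 for Postn, Cilp, Thbs1 and Col8a1 and above 1 for Comp.

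The fibroblast-like clusters differed. Cluster 0, led by Hmcn2, Ccl11 and Cxcl14, held 3582 cells in sham and 2449 at TAC-6w, and Postn was there at 260.4 and 789.5 CPM, Cilp at 180.4 and 551 CPM and Col8a1 at 366 and 869.9 CPM. In cluster 3, led by Igfbp3, Sntg1 and Cyp2e1, with 649 and 349 cells, the same genes were lower at TAC-6w than in sham. Postn stood there at 186 and 101 CPM, Cilp at 74.4 and 56.9 CPM and Col8a1 at 150.1 and 99.5 CPM. Their ratios were 0.542 (0.465 to 0.629), 0.766 (0.620 to 0.940) and 0.663 (0.567 to 0.772). Comp was higher in both clusters, from 40.3 to 157 CPM in cluster 0 and from 87.8 to 222 CPM in cluster 3, and Thbs4 had 1 UMI in cluster 3 in sham, too few for a ratio to be read. Adamtsl2 in cluster 3 did not differ beyond its interval (1.04, 0.921 to 1.17). In the valve and tendon-like cells the ratios of TAC-6w to sham were 3.14 (2.37 to 4.15) for Thbs4, 1.51 (1.41 to 1.62) for Comp and 1.34 (1.19 to 1.497) for Postn, and Mfap4 again did not differ beyond its interval (1.01, 0.925 to 1.105).

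Larger shares of the fibroblast-like cells carried most of the genes at TAC-6w than in sham. In cells thinned to 1000 UMIs, to make depths equal, the share with a Postn UMI was 9.10% (8.25 to 10.0) of 4197 cells in sham and 10.6%, 8.70% and 21.6% in the TAC libraries by week. That of Cilp was 7.34%, 9.56%, 5.98% and 20.0%, that of Adamtsl2 11.03%, 14.9%, 5.43% and 21.6%, and that of Col8a1 19.9%, 23.4%, 15.2% and 34.9%. The TAC-6w library was thus the highest for each of them. Mfap4 was found in 27.4% of the cells in sham and 29.8% at TAC-6w, and Thbs4, the gene with the largest ratio, in 0.31% and 2.56%. None of the 10 shares was lower at TAC-6w than in sham, but how many of all genes did the same was not counted. Without thinning, the median cell had 10556 UMIs in sham and 6178.5 at TAC-6w. The shares of Postn were then 24.1% and 37.3%, and those of Mfap4 were 57.1% and 57.0%. The thinning left out 34 cells in sham and 29 at TAC-6w.

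**Figure D5:**
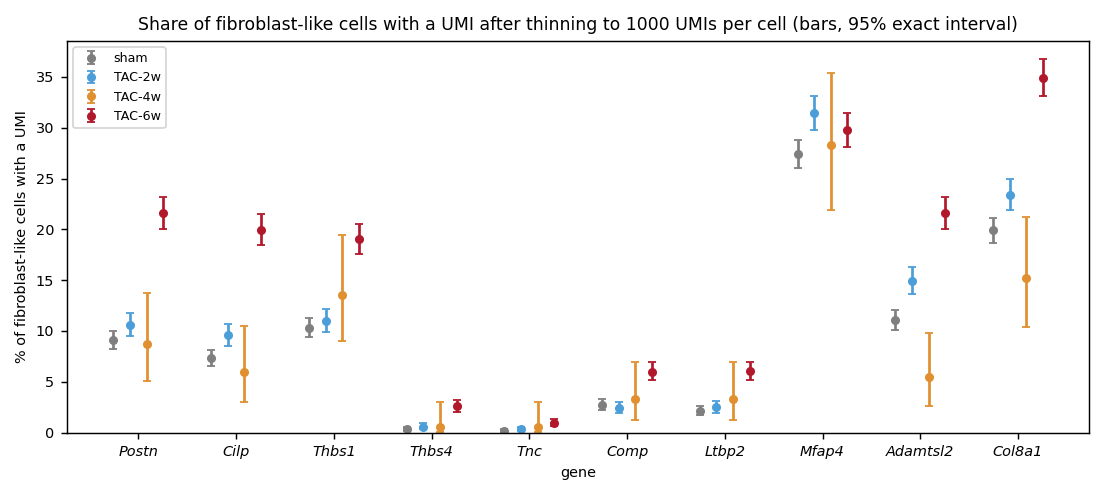
Share of fibroblast-like cells with a UMI of each gene (vertical axis, percent) in the 4 libraries, after each cell was thinned to 1000 UMIs; bars are 95% exact binomial intervals. The TAC-6w points lie above sham for all 10 genes, with overlapping bars for Mfap4, and the TAC-4w bars are wide because 184 cells entered.

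At TAC-6w 7 of the other 9 genes were found more often in cells that also had Postn, with intervals that did not overlap. The same held for 8 of the 9 in sham, 7 at TAC-2w and 2 at TAC-4w, where 16 cells had Postn. It was thus not particular to TAC-6w, and the share of all genes that did so was not computed. The fibroblast-like cells pool clusters 0 and 3, where Postn stood at 789.5 and 101 CPM and Cilp at 551 and 56.9 CPM at TAC-6w. Comp was the other way round, at 157 and 222 CPM. The part of this difference between clusters in the shares was not tested. In the TAC-6w library 598 of the 2769 thinned fibroblast-like cells had a Postn UMI. Of these Postn-positive cells 51.3% (47.2 to 55.4) also had Cilp, against 11.3% (10.0 to 12.7) of the other cells, and in sham the shares were 25.1% and 5.56%. Col8a1 was found in 65.2% and 26.6%, Ltbp2 in 17.6% and 2.86% and Thbs4 in 8.86% and 0.83% of the Postn-positive and other cells at TAC-6w. The intervals overlapped for Tnc, with 1.67% (0.805 to 3.05) and 0.737% (0.422 to 1.19), and for Adamtsl2, with 23.9% (20.5 to 27.5) and 21.0% (19.3 to 22.7) in these cells. In sham the shares of Adamtsl2 were 11.3% and 11.01%. Cells with at least 3 of the 10 genes made up 8.58%, 11.7%, 8.15% and 26.4% of the fibroblast-like cells in the 4 libraries. Cells of a library are not replicates, so the intervals do not cover the spread between hearts.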

How the data were processed

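Spatial transcriptomes of 4 mouse heart sections and 4 droplet libraries were used. The deposited values are raw UMI counts of each gene in each spot or cell barcode, which the authors did not normalize. The file headers name Cell Ranger 6.0.0 and Space Ranger 1.2.0, and the submitters' processing notes Cell Ranger 7.0.0, Space Ranger 1.3.1 and build mm10. The labels describe nuclei and the methods cells, and they are called cells here. Levels were computed as summed counts per 1000000 UMIs, with exact Poisson intervals. Ratios have exact conditional binomial and shares exact Clopper-Pearson intervals, all at 95%, covering counting error only. A gene was compared where either sum held at least 50 UMIs. All spots were kept. Cells with 200 to 6000 genes, 500 to 30000 UMIs and under 15% mitochondrial UMIs were kept, which left between 5577 and 8228 of between 5854 and 10275 barcodes per library. The 3.2% with the highest Scrublet scores (scanpy 1.11.5) were removed as doublets. Cells were merged and clustered in Seurat 5.3.0 (R 4.3.3) on 3000 variable genes without the 10 genes, with 30 components at resolution 0.25. A cluster was named by the marker list with the highest mean fold if at least 4 of its markers were detected. Shares were compared after thinning to 1000 UMIs. Correlations over spots used log-normalized counts per 10000. Python 3.11.15, numpy 2.4.6, scipy 1.17.1 and pandas 2.3.3 were used, and intervals, correlation and thinning were tested on simulated data. The 10 genes and all lists were chosen with earlier results of these data known. All 10 genes are given by name. Of each other list the 2 largest and the smallest TAC-6w to sham ratio are named, and of the genes most like them the closest for each gene and the 10 with the highest mean correlation. Promoter windows come from RefSeq (GRCm38.p6). The alternatives tried were other totals, averaging over spots, thinning, other sets of spots, a 1.5-fold threshold, rank correlation, doublets kept, a 5% mitochondrial limit, naming of single cells, clustering with the 10 genes and resolution 0.5. Added after seeing the data were leaving out the TAC-4w library, joining the valve and tendon-like cells, and each fibroblast-like cluster alone.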

Additional observations from a re-analysis of the deposited data

Results flagged for a closer look

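In 6 genes the sections lay below sham at one time after TAC and above it at another, with counting intervals on either side of 1 and at least 50 UMIs in either section at both times. Of all 11510 genes with enough counts at more than 1 time, 14.8% did so, but the 10 genes were chosen with these levels known. With 1 section per condition the difference between the times was not tested. Postn was at 0.635 times sham at TAC-2w and 4.46 times at TAC-6w, Cilp at 0.595 and 6.20, Ltbp2 at 0.343 and 3.61 and Mfap4 at 0.730 and 4.79. Thbs1 was at 0.469 times sham at TAC-2w and 3.16 times at TAC-4w. Adamtsl2 was at 0.533 times sham at TAC-4w and 3.805 times at TAC-6w. Comp and Tnc also had intervals below 1 at TAC-2w, at ratios of 0.609 and 0.121, but had under 50 UMIs in both sections. The TAC-2w values are within the batch of sham, the others are not.

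In fibroblast-like cells 4 genes did so, against 25.4% of all 12221 genes, again without a test of the difference. Postn was at 0.891 times sham at TAC-4w and 2.86 times at TAC-6w, and Adamtsl2 at 0.656 and 2.05. Comp was at 0.886 times sham at TAC-2w and 3.47 times at TAC-6w, and Mfap4 at 0.762 times at TAC-4w and 1.13 times at TAC-2w. The values below sham at TAC-4w rest on 185 cells of the library that stood apart, and its fibroblast-like cells held 439 CPM of neutrophil markers against 6.5 CPM in sham.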

How the results depend on the processing

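Each condition had 1 section and 1 library, so no setting here speaks to the spread between hearts, and depth limits Tnc most, which had between 5 and 73 UMIs per section. The counts of genes at least 2-fold above sham stayed within 1.5 times of the reported ones at TAC-2w (0 throughout) and TAC-6w (8 to 10) under every alternative tried. At TAC-4w the count was 3 instead of 5 with spots thinned to 5000 UMIs, and between 4 and 6 under the others. The count of genes at least 2-fold below sham at TAC-2w was 2, and it was 1 with spots thinned and 4 at a 1.5-fold threshold, alternatives that were added for it after seeing the data. Leaving mitochondrial and ribosomal-RNA-like features out of the total moved the median ratio of all genes from 1.24 to 1.07 and that of the 10 genes from 4.13 to 3.59 at TAC-6w, so that relative to all genes the 10 stayed at 3.34. The median correlation at TAC-6w was 0.0463 after thinning and between 0.0876 and 0.120 otherwise.

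The number of genes highest in fibroblast-like cells was 3, and it was 5 with doublets kept, 5 when clustered with the 10 genes, 9 with each cell named by its own markers, and 9 with the valve and tendon-like cells joined. The number with a lower level in fibroblast-like cells at TAC-6w was 1 and became 4 in cluster 3 alone. There the ratio turned for Postn (0.542), Cilp (0.766), Thbs1 (0.768) and Col8a1 (0.663), with intervals below 1. It also turned for Ltbp2 (0.768, 0.494 to 1.16) and Mfap4 (1.05, 0.962 to 1.14), but these intervals held 1. The number with a lower share of cells was 0 and, without thinning, 1. The causes were not tested. Of 120 recomputed section ratios of genes whose interval lay off 1, none crossed 1 and 8 moved by over 1.5 times, all given above. Of 15 whose interval held 1, 8 crossed it, for Thbs4 and Col8a1 at TAC-2w and Mfap4 at TAC-4w. Of the 90 for the cells 6 turned direction. No paired analysis was possible because each group has 1 sample and no result comes from a test.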

Other observations

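An endothelial-like cluster of 403 cells, led by H19 and Npr3, held Comp and Postn at levels that the other endothelial-like cluster did not. Comp stood there at 285 CPM in sham, 388 at TAC-2w and 331 at TAC-6w, against at most 2.37 CPM in the other cluster in these libraries, and Postn at 319, 351 and 286 CPM against at most 11.8 CPM. The TAC-4w library had 10 cells of this cluster. Smooth muscle-like cells, with at least 20 cells in the sham and TAC-2w libraries alone, held Thbs1 at 177 and 498 CPM there.

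The 1% of spots with the most Cilp UMIs, chosen after the values were seen, were also rich in other genes of the group. In sham, 17 such spots with 1.58% of all UMIs held 48.6% of the Ltbp2 UMIs, 31.4% of Comp, 24.3% of Thbs4 and 20.7% of Postn, and 10 of them touched another. At TAC-6w, 22 such spots with 1.93% of all UMIs held 27.3% of Thbs4, 12.4% of Comp, 11.7% of Ltbp2 and 8.8% of Postn. Smooth muscle markers were at 2639 CPM in these spots and 168 CPM elsewhere in sham, and at 1243 and 146 CPM at TAC-6w. Fibroblast markers were at 5623 and 1615 CPM in sham, and at 4307 and 1950 CPM at TAC-6w. In sham the fibrillar collagens were at 1107 and 228 CPM, macrophage markers at 452 and 135 CPM and cardiomyocyte markers at 30699 and 31710 CPM. The part of vessel walls or of fibroblasts in these counts was not tested.

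Thbs2, the thrombospondin closest to Thbs1, was like it highest at TAC-4w in the sections, at 1.81 times sham. At TAC-6w the 2 genes differed, with Thbs2 at 0.616 times sham and Thbs1 at 1.90 times (1.46 to 2.48).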
